A study of Mus musculus with 2 samples.

Results

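Fc receptors bind the constant part of antibodies and so let a cell respond to antigen that antibody has coated. Their transcripts were followed here in macrophages with and without interleukin-4 (IL-4). The 7 genes of the mouse Fc gamma and Fc epsilon receptor group described are Fcgr1, Fcgr2b, Fcgr3, Fcgr4, Fcer1g, Fcer2a and Fcgrt. They were found by name, through the NCBI gene number of each row, in a rule that uses no measured value but was set with earlier results of these data known. All 7 were found among the 15623 genes listed in at least 1 of the 2 libraries, and all 7 were listed in both.

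The RNA came from peritoneal macrophages that thioglycolate had drawn into the cavity of C57BL/6 mice of wild type genotype, 6 to 8 weeks old per the methods of the study. One library was from nontreated (NT) cells and one from cells stimulated with mouse IL-4 for 6 h. In both groups peritoneal cells were collected 4 to 5 days after an injection of 4% thioglycolate, left to adhere for 4 h, washed and starved in medium with 0.5% serum. Another label field names bone marrow as the tissue of both samples, and the peritoneal origin was used here. Since each group holds 1 library, there is no spread between replicates, and every difference below is between these libraries and not between the conditions. How many animals gave the cells of each library is not given in the sources used here.

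The classical Fc gamma receptors of the mouse bind IgG and fall into activating receptors (FcγRI, FcγRIII and FcγRIV, encoded by Fcgr1, Fcgr3 and Fcgr4) and a single inhibitory receptor, FcγRIIB (Fcgr2b). The activating receptors signal through the common γ chain, encoded by Fcer1g, whose cytoplasmic tail carries an immunoreceptor tyrosine-based activation motif (ITAM), whereas FcγRIIB carries an inhibitory motif (ITIM) in its own tail. On macrophages the balance between these receptors sets the threshold at which immune complexes trigger engulfment and cytokine release. Fcer2a encodes CD23, a low-affinity receptor for IgE that is a C-type lectin and best known on B cells, and Fcgrt encodes the heavy chain of the neonatal receptor FcRn, which protects IgG from degradation inside cells.

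The motifs that divide these genes into activating and inhibitory are shown first, as codons read from GENCODE M21 coding sequences of GRCm38. Both lie on the minus strand of chromosome 1, the capitals mark the codons of the tyrosines, and the letters run 5′ to 3′ along the transcript. The ITIM codons of Fcgr2b occupy 18 bases of exon 7 at chr1:170961071-170961088. The ITAM codons of Fcer1g occupy 45 bases of exons 4 and 5 between chr1:171229889 and chr1:171230072. No stretch with the spacing of an ITAM was found in the coding sequences of Fcgr1, Fcgr3 or Fcgr4.
Fcgr2b ITIM: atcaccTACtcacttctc
Fcer1g ITAM: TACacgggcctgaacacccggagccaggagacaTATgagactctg

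Fcgr2b and Fcgr3 also share long stretches of sequence, which bears on how reads can be assigned to them. Over 781 aligned coding bases, 675 were identical (86.4%), whereas every other pair of the 4 Fc gamma receptors was 67.9% to 69.9% identical. The longest identical run was 129 bases between Fcgr2b and Fcgr3, and 9 to 14 bases in the other pairs. The run crosses the junction of exons 3 and 4 in both genes, at coding bases 278 to 406 of Fcgr2b (between chr1:170966674 and chr1:170968081, minus strand) and 263 to 391 of Fcgr3 (between chr1:171054167 and chr1:171057792, minus strand). It is printed because a read that falls inside it cannot be told apart between the inhibitory and the activating receptor.
Fcgr2b and Fcgr3 shared run: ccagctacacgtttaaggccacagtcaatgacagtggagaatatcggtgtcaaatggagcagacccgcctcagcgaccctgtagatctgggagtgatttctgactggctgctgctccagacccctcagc

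The NT library held 11035641 expected counts and the IL-4 library 11250099, where an expected count is the number of reads estimated to come from a gene. A count of 0 in these libraries allows a level of up to 0.272 (NT) and 0.267 (IL-4) CPM, a count scaled to a common total, which corresponds to 3 counts. All 8 macrophage markers examined were listed, led by the lysozyme gene Lyz2 with 129463 expected counts in NT and 126458 in IL-4, and all 8 genes of a set of known IL-4 responses were higher in IL-4, among them the arginase gene Arg1 (30 and 7711 expected counts). The difference between the libraries is given as a log2 ratio (IL-4 divided by NT) of counts scaled to the totals, with 0.5 count added to each, and an exact 95% counting interval (Clopper-Pearson, from rounded counts). A gene was called higher or lower when this ratio was at least 0.75 in size and its interval left out 0. Intervals cover counting error only, since PCR copies carry no molecular identifiers and animals were not replicated.

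Among the Fc receptor genes the inhibitory receptor Fcgr2b was higher in the IL-4 library, by 7.55-fold, and no other member was called in either direction. So 1 of 7 members was called higher and 0 of 7 lower, beside 4.07% and 6.28% of all 15593 genes tested (10.4% in either direction). The median log2 ratio of the 7 members was -0.06, against -0.03 over all genes with at least 10 reads. The 3 activating receptors and their γ chain had log2 ratios between -0.52 and 0.22. The members lay at very different levels, from an FPKM (a level scaled to transcript length and to depth) of 717.83 for Fcer1g in NT to 0.34 for Fcer2a in the same library.

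**Figure D1:**
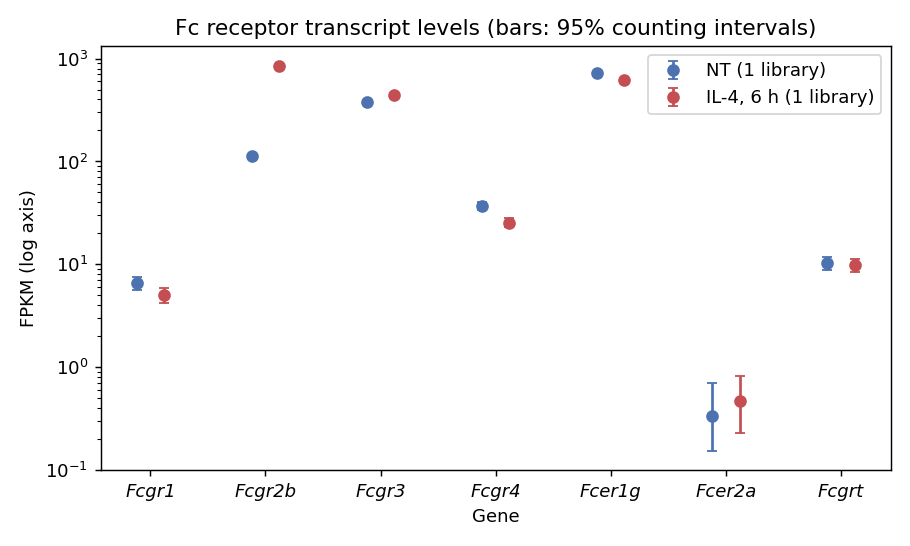
FPKM of the 7 Fc receptor genes (log axis) in the NT and IL-4 libraries, 1 library per group, with bars for exact 95% counting intervals that cover counting error only and are hidden by the points where narrow. Fcgr2b moves from 112.2 to 846.69, past Fcgr3 and Fcer1g, while the other 6 genes keep their order.

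Fcgr2b (NCBI gene 14130, chr1:170960558-170976071 of GRCm38, minus strand) had 1752.43 expected counts in NT and 13485.31 in IL-4. On the FPKM scale, which is per length, its level was 112.2 (95% counting interval 107 to 118) in NT and 846.69 (832 to 861) in IL-4. The intervals lay far apart, and the log2 ratio was 2.92 (2.84 to 2.99), which is 7.55-fold (7.18 to 7.94). Among the 9925 genes with at least 50 expected counts in 1 of the libraries, Fcgr2b had the 53rd largest ratio, so that 99.5% of them lay below it. By FPKM it was the 590th most abundant gene in NT and the 66th in IL-4. The call held under every alternative of scaling, added value, length correction, threshold or assumed variation between animals, with log2 ratios from 2.76 to 2.95. The average transcript length listed for Fcgr2b was 1426.42 bases in NT and 1426.04 in IL-4, so the mix of its isoforms, as far as their lengths differ, was nearly the same in both.

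Fcgr2b is also the main Fc gamma receptor of B cells, and in bulk RNA fewer cells of a type and less RNA per cell cannot be told apart. Of 10 B cell markers, 8 were listed, with 1452.5 expected counts summed in NT and 1544.12 in IL-4. Cd22, an inhibitory receptor known from B cells, made up most of this sum (1335.5 and 1445.12 expected counts), and the other 7 summed to 117 in NT and 99 in IL-4. Of the listed B cell markers only Blk, named after its values were seen, was called, and it was lower (10 and 1 expected counts, log2 ratio -2.84). The call of Blk was lost under 3 of 9 alternatives. The immunoglobulin heavy chain genes Ighm and Ighd were not listed in either library, and Pax5, the B cell identity factor, had 0 counts in NT and 1 in IL-4. The part of B cells in the value of Fcgr2b was not tested.

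**Figure D2:**
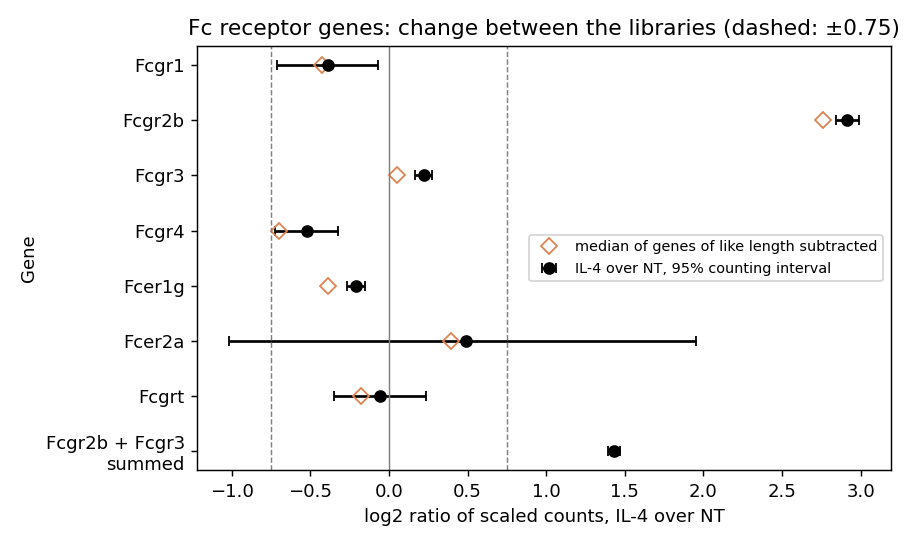
Log2 ratio of scaled counts, IL-4 over NT, for each Fc receptor gene and for Fcgr2b and Fcgr3 summed (filled points with exact 95% counting intervals), with dashed lines at 0.75 in size. Open diamonds give the ratio of each gene, but not of the summed pair, after the median of genes of like length was subtracted. Fcgr2b at 2.92 and the summed pair at 1.43 lie beyond the dashed lines, and the other 6 genes have points between them.

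Fcgr3 (NCBI gene 14131, chr1:171051169-171065915, minus strand), the activating receptor most like Fcgr2b in sequence, had 5573.57 expected counts in NT and 6619.69 in IL-4. Its FPKM was 376.75 (367 to 387) in NT and 438.68 (428 to 449) in IL-4. Its log2 ratio was 0.22 (0.17 to 0.27), a difference larger than counting error but under the threshold, and it was not called. Genes of its length had a median log2 ratio of 0.17, and with that median subtracted Fcgr3 stood at 0.05.

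Since neither gene had whole expected counts, reads had been divided between genes, and the sum of both was whole in each library, at 7326 in NT and 20105 in IL-4. The pair taken as one unit does not depend on that division. Its summed FPKM was 488.95 in NT and 1285.37 in IL-4, and its log2 ratio was 1.43 (1.39 to 1.47), which is 2.69-fold. It was called higher under every alternative computed for it, with log2 ratios from 1.27 to 1.47. Of the summed FPKM of the pair, Fcgr2b held 22.9% in NT and 65.9% in IL-4, so the ratio of Fcgr2b to Fcgr3 was 0.298 in NT and 1.93 in IL-4. Expected counts carry no error for the division itself, and the part of the assignment of shared reads in the values of each gene was not tested.

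Fcgr4 (NCBI gene 246256, chr1:171018926-171029761), the activating receptor that binds IgG2 subclasses and lies between Fcgr2b and Fcgr3 on the chromosome, had 499 expected counts in NT and 354 in IL-4. Its FPKM was 36.59 (33.4 to 39.9) in NT and 25.45 (22.9 to 28.2) in IL-4, and these intervals did not overlap. The log2 ratio was -0.52 (-0.72 to -0.32), short of the threshold. Subtraction of the median of genes of like length took it to -0.70, which is still inside the threshold and the nearest to it of the 6 genes that were not called.

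Fcgr1 (NCBI gene 14129, chr3:96282909-96293969) encodes the high-affinity receptor FcγRI and is the only activating Fc gamma receptor gene outside chromosome 1 here. It had 189 expected counts in NT and 147 in IL-4, with an FPKM of 6.59 (5.68 to 7.60) and 5.02 (4.24 to 5.90). These intervals overlap at their ends, and the log2 ratio of -0.39 (-0.71 to -0.07) was not called. Fcgr1 was the least abundant of the 4 Fc gamma receptors in both libraries.

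Summed over the 4 Fc gamma receptors, the FPKM was 532.13 in NT and 1315.84 in IL-4. Fcgr3 held the largest share in NT (70.8%), followed by Fcgr2b (21.1%), Fcgr4 (6.88%) and Fcgr1 (1.24%). In IL-4 Fcgr2b held 64.3%, Fcgr3 33.3%, Fcgr4 1.93% and Fcgr1 0.382%. By reads, Fcgr2b took 1752 of 8014 in NT, which is 21.9% (exact 95% interval 21.0 to 22.8), and 13485 of 20606 in IL-4, which is 65.4% (64.8 to 66.1). The smaller shares of the other 3 genes go with a larger sum of all 4. The summed FPKM of the activating receptors Fcgr1, Fcgr3 and Fcgr4 was 419.93 in NT and 469.15 in IL-4. Of these, Fcgr3 had a higher FPKM in IL-4 (376.75 in NT and 438.68 in IL-4). Fcgr4 (36.59 and 25.45) and Fcgr1 (6.59 and 5.02) had a lower FPKM as well as a smaller share. The activating receptors together stood at 3.74 times the level of Fcgr2b in NT and at 0.554 times in IL-4.

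**Figure D3:**
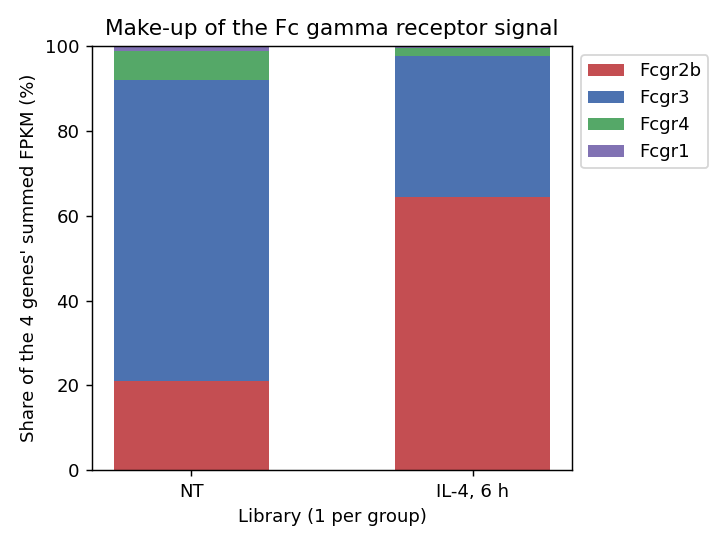
Share (percent) of each Fc gamma receptor in the summed FPKM of Fcgr1, Fcgr2b, Fcgr3 and Fcgr4 in the NT and IL-4 libraries, 1 library each. Fcgr2b takes 21.1% of the NT bar and 64.3% of the IL-4 bar, and Fcgr3 70.8% and 33.3%.

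Fcer1g (NCBI gene 14127, chr1:171229572-171234349, minus strand), the γ chain that the activating receptors need for assembly and signalling, had 5215 expected counts in NT and 4602 in IL-4. Its FPKM was 717.83 (698 to 738) in NT and 621.03 (603 to 639) in IL-4, where it ranked 79th and 116th among all genes. The log2 ratio was -0.21 (-0.27 to -0.15), beyond counting error but not called, and -0.39 with the median of genes of like length subtracted. The ratio of Fcer1g to the summed activating receptors was 1.71 in NT and 1.32 in IL-4 on the FPKM scale, so the γ chain transcript exceeded that of its Fc gamma partners in both. Its use as a signalling chain is shared with other receptors of macrophages, which are described further on.

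Fcer2a (NCBI gene 14128, chr8:3680280-3694174), the CD23 gene, was near the limit of detection in both libraries. It had 7.63 expected counts and an FPKM of 0.34 (0.154 to 0.702) in NT, and 11.12 expected counts and an FPKM of 0.47 (0.232 to 0.832) in IL-4. The log2 ratio of 0.49 had an interval from -1.02 to 1.95, so no difference in either direction was detectable at this depth. The gene overlaps Trappc5, which had 244 and 285 expected counts (log2 ratio 0.20), and since whether the counting used strand is not given in the sources used here, the few reads of Fcer2a cannot be assigned with certainty.

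Fcgrt (NCBI gene 14132, chr7:45092993-45103822), the FcRn heavy chain gene, had 196 expected counts in NT and 192 in IL-4. Its FPKM was 10.25 (8.87 to 11.8) and 9.84 (8.50 to 11.3), with a log2 ratio of -0.06 (-0.35 to 0.24). The interval of the difference reaches neither threshold. B2m, which encodes the light chain that FcRn shares with MHC class I molecules, had 42878 and 50198 expected counts (log2 ratio 0.20) and stood at 453 and 542 times the FPKM of Fcgrt.

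In NT the order of FPKM was Fcer1g, Fcgr3, Fcgr2b, Fcgr4, Fcgrt, Fcgr1 and Fcer2a. In IL-4 Fcgr2b moved from the third place to the first, and the other 6 genes kept their order. No neighbours in either order had overlapping counting intervals, but variation between animals is not in these intervals. The log2 ratio ranked Fcgr2b 53rd, Fcgr3 2445th, Fcgrt 5521st, Fcer1g 6854th, Fcgr1 8022nd and Fcgr4 8618th of the 9925 genes with at least 50 expected counts in 1 library, and Fcer2a had too few counts for this ranking.

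**Figure D4:**
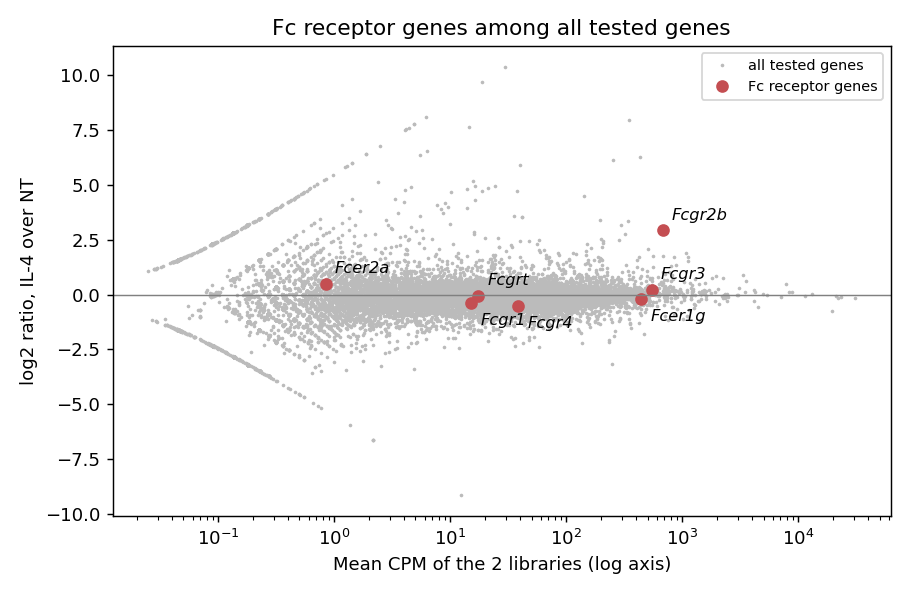
Log2 ratio of IL-4 over NT against the mean CPM of both libraries (log axis) for all genes tested (grey) and the 7 Fc receptor genes (red). Fcgr2b stands above the cloud of genes of like abundance at 2.92, Fcgr3 and Fcer1g lie within the cloud at a like abundance, and Fcer2a lies where counting error is wide.

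The genes nearest to Fcgr2b in pattern, by Euclidean distance in log2 CPM over the 2 libraries, were Tfrc, Tlr8 and F10. Tfrc, the transferrin receptor gene, had 2148 expected counts in NT and 9144 in IL-4 (log2 ratio 2.06, distance 0.633). Tlr8, an endosomal sensor of RNA, had 2824 and 9692 (1.75, distance 0.837). F10, which encodes coagulation factor X, had 2178.71 and 7255.05 (1.71, distance 0.948). With only 2 libraries this likeness is one of level and ratio, and all 3 had a smaller ratio than Fcgr2b.

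Of the genes that flank the receptors on the chromosomes, members aside, none was called higher and only Mcemp1 lower. Of all genes, 4.07% were called higher and 6.28% lower. Most of the flanking genes had few counts, so that their lack of a call says little. Fcrla, an Fc receptor-like gene 28342 bases from Fcgr2b, had 2 and 4 expected counts, and Fcgr4 is the nearest listed gene on the other side, 42855 bases away. Fcgr4 and Fcgr3 lie 21408 bases apart, and Cfap126, 47997 bases beyond Fcgr3, had 4 and 2. Beside Fcer1g, the apolipoprotein gene Apoa2 at 3193 bases had 2 and 3. Beside Fcgrt, Rcn3 at 671 bases had 68 and 75 expected counts (log2 ratio 0.11). Of the neighbours of Fcer2a, Mcemp1, a membrane protein gene of mast and myeloid cells, was called lower (51 and 15 expected counts, -1.76), and Clec4g had 0 and 1. The histone gene H4c14 and BC107364, on either side of Fcgr1, had 1.99 and 0.98 expected counts in NT and 0 in IL-4.

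For each receptor gene, the 250 bases before annotated transcript starts were searched for short motifs, using RefSeq promoters of GRCm38.p6. All 7 members were found, with 10 windows. The windows of Fcgr3 lie before starts inside the listed span of the gene, so the 250 bases before that span were not searched. Of the Fcer2a windows, those at chr8:3690862-3691111 and chr8:3690391-3690640 also lie inside the span of the gene. The motifs were TTC and GAA with 4 bases between them (the spacing known for STAT6) or 3 (other STAT proteins), GGAAGT and GAGGAAGT (ETS and PU.1 core letters, of which the second contains the first), and TTTC repeated with 2 bases between (the interferon response form), on both strands. Positions are counted from the start of the transcript, with negative numbers before it. The window of Fcgr2b, at chr1:170976072-170976321 on the minus strand, held only ACTTCC, the reverse complement of GGAAGT, at -31 to -26. It is printed whole because Fcgr2b is the member that differed, with the match in capitals.
Fcgr2b promoter: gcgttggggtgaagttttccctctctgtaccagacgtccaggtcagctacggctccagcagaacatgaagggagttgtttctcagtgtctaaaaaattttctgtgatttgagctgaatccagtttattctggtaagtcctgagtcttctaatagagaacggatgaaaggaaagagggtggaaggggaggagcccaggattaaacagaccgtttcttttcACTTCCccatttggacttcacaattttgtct

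Matches in the windows of the other members are shown with 10 bases on each side, the match in capitals and the letters on the strand of the gene (plus for Fcgr4, minus for the others). Fcgr1 held the STAT form with 3 bases between at -109 to -101, and GGAAGT, as its reverse complement, at -61 to -56. Fcgr4 held GAGGAAGT at -24 to -17 and the interferon response form at -73 to -64, both as reverse complements. Of the 3 windows of Fcer2a, 1 held GGAAGT as its reverse complement at -113 to -108. Another, before a start inside the gene, held the STAT6 form with 4 bases between at -168 to -159. No motif was found in the windows of Fcgr3, which precede starts inside that gene, or in those of Fcer1g or Fcgrt. Of all 32851 promoter windows of this length, 5.85% held the STAT form with 4 bases between, 7.02% that with 3, 19.7% GGAAGT, 2.44% GAGGAAGT and 2.98% the interferon response form. A match describes letters only, and no binding was measured here.
Fcgr1 STAT form: aaggatgtatTTCCCAGAAaagggaacag
Fcgr1 GGAAGT: agaaatggcaACTTCCttcctctttt
Fcgr4 GAGGAAGT: aaggctatttACTTCCTCtcttctagtc
Fcgr4 interferon response form: ggtgtttctgGAAAAGGAAActggtgagat
Fcer2a GGAAGT: aatagcccggACTTCCccaggttcta
Fcer2a STAT6 form: agagggtgaaTTCCCAAGAAgggccaggag

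Receptors other than the Fc gamma receptors that are known or thought to signal through Fcer1g were counted next, and the lectins Clec4e and Clec4d were lower in IL-4 although Fcer1g itself was not called. Of 17 such genes 12 were listed, with 1 called higher, 3 lower and 8 not called, and a median log2 ratio of -0.10. The called shares were 8.33% higher and 25.0% lower, beside 4.07% and 6.28% of all genes. Clec4e, which encodes the mycobacterial glycolipid receptor Mincle, had 2484 expected counts in NT and 545 in IL-4, and its FPKM was 89.04 and 19.15. Its log2 ratio was -2.22 (-2.35 to -2.08), which is 4.64-fold lower. Clec4d, whose product pairs with Mincle, had 4186 and 941 expected counts and an FPKM of 286.72 and 63.2, a log2 ratio of -2.18 (-2.28 to -2.08) and 4.53-fold lower. Clec4n, which encodes Dectin-2 and is named outside the rule because it completes the 3 lower genes, had 35 and 4 (-3.01). Clec4a3, a C-type lectin-like gene of the same cluster, was higher (569 and 1141, 0.98). The 3 lower calls held under every alternative, and that of Clec4a3 was lost with a threshold of 1 and at an animal-to-animal coefficient of variation set to 0.4.

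Of 3 other adaptors with an ITAM or a similar signalling motif (Tyrobp, Hcst and Cd247), 0 were called, beside 10.4% of all genes in either direction. So few genes say little about such adaptors as a group. Their median log2 ratio was -0.30. Tyrobp, which encodes the adaptor DAP12, had 8985 expected counts in NT and 7415 in IL-4, an FPKM of 1455.08 and 1177.27, and a log2 ratio of -0.30. Fcer1g and Tyrobp were thus among the abundant transcripts in both libraries, each with a ratio below 0 and inside the threshold.

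Of 9 other Fc receptor and Fc receptor-like genes listed out of 12, 1 was called higher (11.1%) and 2 lower (22.2%), beside 4.07% and 6.28% of all genes, and most had few reads. Fcrls, a scavenger-type Fc receptor-like gene, had 7 expected counts in NT and 62 in IL-4 (log2 ratio 3.03, interval 1.99 to 4.49), and its call held under every alternative. The lower genes, named after their values were seen, were Fcmr, the IgM receptor gene (15 and 3, -2.17), and Fcrl1, a B cell gene with 12 in NT and 0 in IL-4 (at least 4.08-fold lower, against 3 counts in the IL-4 library). Both lower calls were lost with 1 added to FPKM. Fcer1a, the α chain of the high-affinity IgE receptor, was not listed in either library, and Ms4a2, its β chain, had 0 and 1 counts. Of 10 mast cell and basophil markers 8 were listed, with 76 expected counts summed in NT and 71 in IL-4, led by the tryptase gene Tpsb2 (30 and 19). One of them was called, Hdc, the histamine-forming enzyme gene, named after its values were seen and higher (3 and 15, log2 ratio 2.12). The call of Hdc was lost under 3 of 9 alternatives.

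Downstream of the activating receptors, Fyn was higher in IL-4 while most of the pathway was not called. All 30 genes of the ITAM signalling list were listed, with 2 called higher (6.67%), 2 lower (6.67%) and 26 not called, shares near those of all genes (4.07% and 6.28%). The median log2 ratio was -0.25 with 20 genes below 0, and with the median of genes of like length subtracted it was -0.07 with 17 below 0. Fyn, a Src family kinase, had 323 expected counts in NT and 1157 in IL-4 (1.81, interval 1.63 to 2.0) and was called under every alternative. Lat, an adaptor best known in T cells, stood at the threshold (215 and 369, 0.75) and lost its call under 7 of 9 alternatives. Among the lower genes was Vav3, a guanine nucleotide exchange factor (549 and 310, -0.85), whose call was lost under 4 of 9 alternatives. Syk, the kinase that docks on the phosphorylated ITAM, had 6322 and 4692 (-0.46), Lyn 1771 and 1366 (-0.40), and Fgr 711 and 464 (-0.64), none of them called.

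On the inhibitory side, the phosphatase through which FcγRIIB acts was not called. That phosphatase is SHIP-1, encoded by Inpp5d, with 1989 expected counts in NT and 1597 in IL-4 (log2 ratio -0.34). All 12 genes of the ITIM signalling list were listed, with 0 called higher, 2 lower (16.7%) and 10 not called, beside 4.07% and 6.28% of all genes. Of the 12, 11 had a ratio below 0 (median -0.34), and with the median of genes of like length subtracted 8 did (median -0.16). The lower ones were Inppl1, which encodes the related phosphatase SHIP-2 (1349 and 715, -0.94), and the tyrosine phosphatase gene Ptpn22 (118 and 44, -1.44). Both calls were lost at an animal-to-animal coefficient of variation set to 0.4, and that of Inppl1 also with a threshold of 1. Ptpn6, which encodes SHP-1, had 2775 and 1981 (-0.51).

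Among 18 other receptors with an ITIM that were listed out of 19, 2 were called higher (11.1%) and 4 lower (22.2%), beside 4.07% and 6.28% of all genes, with a median log2 ratio of -0.28 (-0.37 with the median of genes of like length subtracted). Lair1, a receptor for collagen, had 589 expected counts in NT and 1773 in IL-4 (1.56), and Cd72 had 135 and 287 (1.06). The lower receptors were the lectin Clec12a (855 and 205, -2.09), the sialic acid receptor Cd33 (471.12 and 232.17, -1.05), Pilra (142.52 and 74.33, -0.96) and Ceacam1 (548.43 and 330.03, -0.76). The call of Ceacam1 was lost under 8 of 9 alternatives, and of the other 5 called receptors only Clec12a kept its call at an animal-to-animal coefficient of variation set to 0.4. Fcgr2b had a larger ratio than each of these receptors.

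Of 27 genes of the actin and membrane machinery that Fc receptors use for engulfment, all listed, 0 were called higher, 4 lower (14.8%) and 23 not called, beside 4.07% and 6.28% of all genes, and the median log2 ratio was -0.16 (-0.13 with the median of genes of like length subtracted). The lower genes were the myosins Myo1f (10451 expected counts in NT and 5343 in IL-4, -1.0) and Myo10 (516 and 265, -0.99), the actin-binding coronin gene Coro1a (1249 and 679, -0.91) and the actin nucleation regulator Wasf2 (1765 and 1004, -0.84). All 4 calls were lost with a threshold of 1 and at an animal-to-animal coefficient of variation set to 0.4. The call of Myo10 was also lost with the median of genes of like length subtracted (-0.56). Of 6 genes that work with FcRn or CD23, 1 was called higher (16.7%) and 0 lower, beside 4.07% and 6.28% of all genes. The higher gene was Itgax, an integrin chain reported to bind CD23 (2003 and 3527, 0.79), a call that was lost under 3 of 9 alternatives.

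**Figure D5:**
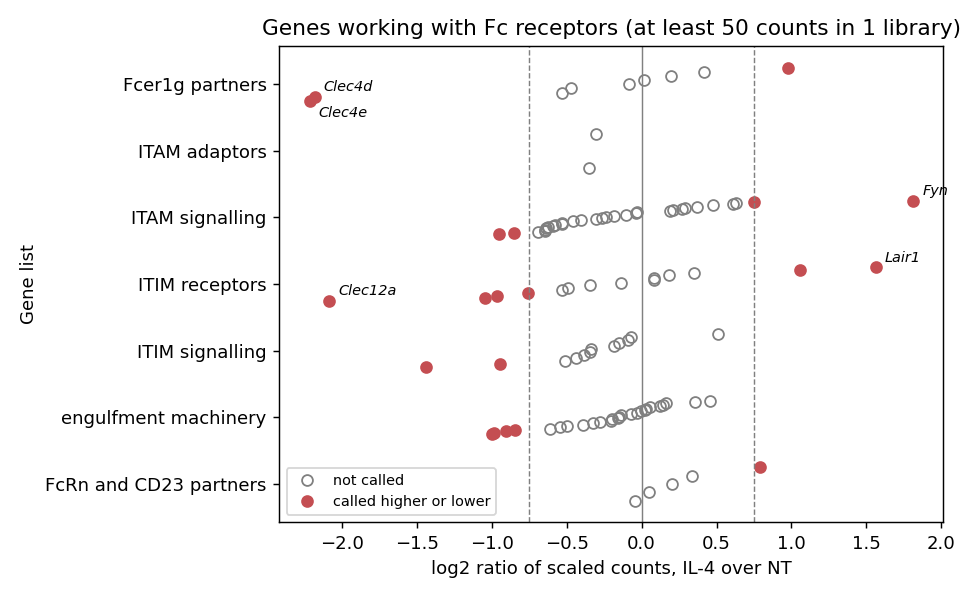
Log2 ratio of scaled counts, IL-4 over NT, for genes that work with Fc receptors and had at least 50 expected counts in 1 library, by list, with filled points for genes called higher or lower and dashed lines at 0.75 in size. Clec4e, Clec4d and Clec12a lie below -2, Fyn and Lair1 above 1.5, and most other genes lie between the dashed lines.

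Markers of other immune cells were mostly at low counts. Natural killer cell markers (4 of 7 listed) summed to 11.06 expected counts in NT and 6.02 in IL-4, with Eomes the highest. Eosinophil markers (3 of 6 listed) summed to 71.8 and 43.2, led by Siglecf (53 and 27, called lower, a call lost under 4 of 9 alternatives). Dendritic cell markers (6 of 7) summed to 71.8 and 70.5, led by Ccr7 (41 and 39), and T cell markers (7 of 8) to 66.7 and 55.2, led by Cd8a (20 and 18). Of 9 neutrophil markers 3 were listed, and their sum of 1877 and 3396 came mostly from Csf3r, a gene that macrophages also express. Csf3r (1758 and 3291) was called higher (log2 ratio 0.88), a call lost under 2 of 9 alternatives. Ly6g, S100a9, Mpo, Camp, Ngp and Retnlg were not listed. The part of any such cells in the values of the Fc receptor genes was not tested.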

How the data were processed

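RNA of nontreated and IL-4-stimulated peritoneal macrophages was sequenced on an Illumina HiSeq, with 1 library per group, grouped by sample title. Per the labels and the methods, the authors used Bowtie for mapping (build GRCm38, also called mm10) and RSEM for quantification, with versions not given in the sources used here. The deposited tables give an expected count per gene (estimated reads, not scaled for depth, with shared reads divided among transcripts) and an FPKM value that the authors scaled for transcript length and depth, beside the length itself. A gene absent from a table was set to 0. NCBI gene numbers of 15587 of 15623 genes were matched to symbols through a RefSeq table of GRCm38, which also gave coordinates. Coding sequences came from GENCODE M21 and promoters from RefSeq.

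Totals were 11035641 (NT) and 11250099 (IL-4) expected counts. Ratios were computed as stated in the text on these counts, rounded to whole numbers for the exact intervals, and no p-value is given because the groups were not replicated. FPKM intervals are exact Poisson intervals of the counts on the FPKM scale. The length correction used the 400 genes closest in transcript length that had at least 200 reads, whose median log2 ratio was subtracted. Python 3.11.15 with numpy 2.4.6, scipy 1.17.1 and pandas 2.3.3, and R 4.3.3 with edgeR 4.0.16 and DESeq2 1.42.0 (for the alternatives) were used. The calling procedure was tested on simulated counts with set changes larger than the threshold. That simulation held counting error only, without variation between animals, division of shared reads or a length effect, so it does not cover these. The genes named are the 7 members, called genes of each related list with at least 50 expected counts (up to 8 per list), the genes Syk, Lyn, Fgr, Inpp5d, Ptpn6, Tyrobp and B2m, the marker of each cell type with most reads, flanking genes, and the 3 genes nearest in pattern to a called member. Some genes that this rule names are not reported here. Other names were added to define a marker list, to explain an overlap or to name small counts. Members and lists were chosen with earlier results of these data known.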

Additional observations from a re-analysis of the deposited data

How the results depend on the processing

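The 7 members kept their calls under all 9 alternatives (TMM and median-of-ratios scaling, totals that leave out the 100 genes of highest count, 0.1 or 1 added to FPKM, the length correction, edgeR's exact test at a coefficient of variation between animals set to 0.2 or 0.4, and a threshold of 1) and when only genes with at least 10 reads were tested. The range of log2 ratios was 2.76 to 2.95 for Fcgr2b, 0.05 to 0.26 for Fcgr3, -0.70 to -0.49 for Fcgr4, -0.42 to -0.33 for Fcgr1, -0.39 to -0.17 for Fcer1g, 0.13 to 0.52 for Fcer2a and -0.18 to -0.02 for Fcgrt. Over all genes, 635 were called higher and 979 lower. With 1 added to FPKM these were 343 and 368, with a coefficient of variation of 0.4 205 and 88, with 0.2 624 lower, and with a threshold of 1 580 lower. The share of Fcgr2b was 22.9% (NT) and 65.9% (IL-4) of Fcgr2b and Fcgr3 alone, and 65.4% of the counts of the 4 Fc gamma receptors in IL-4. In the related lists, 25 counts of called genes moved by over 1.5 times, 9 of them with a coefficient of variation of 0.4, and the cause was not tested. No paired analysis was possible because both groups consist of 1 sample. Shorter genes had higher ratios (Spearman correlation -0.45 across 8461 genes of these libraries, which are not independent replicates), and depth limits Fcer2a most.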
